A study of Mus musculus with 32 samples.

Results

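The transient genes were those whose ribosome footprints were higher in interferon-treated neural stem cells (NSCs) after 2 h and, after 14 h, at or below a limit that still allows a small increase. They were chosen from the footprint counts by a fixed ratio. Counts were divided by the library total and expressed as counts per 1000000 (CPM), and the mean CPM of the IFN-β cultures plus 0.5 was divided by the mean CPM of the vehicle cultures plus 0.5. A gene was a member when the log2 of this ratio was at least 0.8 at 2 h and at most 0.4 at 14 h, and when its count averaged at least 30 over the 2 h libraries. Of 23035 genes in the footprint tables, 10923 had that mean and 345 of these (3.16%) reached 0.8 at 2 h. At 14 h, 215 of the 345 were above 0.4. The other 130 met both ratios, and 7 of them whose symbols begin with letters that the rule leaves out, Tn, Il, Fos, Ccl and Socs (Tnfrsf12a, Tnip2, Il33, Il1r1, Fosl2, Ccl2 and Socs3), were set aside, which left 123 members. Only 2 members, ENSMUSG00000001379 and ENSMUSG00000095265, had no symbol in the annotation used.

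The NSCs were taken from the ventricular-subventricular zone (vSVZ) of male C57BL/6 mice 8 to 12 weeks old and expanded in culture with EGF and FGF. They received IFN-β, a type I interferon, or vehicle (0.1% BSA in PBS) for 2 h or 14 h, and all were exposed to cycloheximide, which holds ribosomes on the mRNA, for 5 min before lysis. Each of the 4 groups had 4 cultures, and each culture gave a footprint library, which reads the mRNA that ribosomes protect, and a total RNA library. The labels number the 2 h cultures 2, 3, 5 and 6 and the 14 h cultures 1 to 4. They do not say whether the numbers 2 and 3 mark the same source at both times. The sets of numbers differ, so time cannot be told apart from the set. A model of this kind holds stem and progenitor cells without the niche of the brain.

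Footprint libraries held 2956297 to 10505108 counts and total RNA libraries 1370008 to 7877753. In 2 total RNA libraries, vehicle number 5 at 2 h and vehicle number 3 at 14 h, the 10 genes with the most counts took 57.0% and 56.8% of all counts, against 20.8% to 37.9% in the others. The 2 h cultures numbered 3, vehicle and IFN-β, stood apart from the other 2 h cultures in footprints of several members, and this is given where it touches a value. Every neural stem cell marker examined (12 genes, among them Nes, Sox2 and Fabp7) had footprints in each group. Microglial markers summed to 12.0 to 45.9 CPM, with Aif1 and Cx3cr1 at 0 in every footprint group, and T cell markers to at most 0.281 CPM. Oligodendrocyte lineage markers summed to 1497 to 1760 CPM in the IFN-β cultures at 2 h and to 2362 to 2816 CPM in the vehicle cultures, and endothelial markers, a list that holds the member Kdr, to 20.8 to 41.6 and 12.4 to 24.0 CPM. At 14 h ependymal markers summed to 86.3 to 105 CPM with IFN-β and 30.7 to 43.8 CPM with vehicle, and neuroblast and neuron markers, a list that holds the member Sox11, to 1627 to 1747 and 1308 to 1404 CPM. In the latter list Map2, which had the most counts at 2 h, had a log2 ratio of 0.43 at 14 h. Sox11 had -0.45, and the others ran from -0.84 (Stmn2) to 0.22 (Dlx2). The part of these cell types in the results was not tested, and in bulk cultures fewer cells of a type and less RNA per cell cannot be told apart.

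Type I interferon binds a receptor coupled to the kinases JAK1 and TYK2, which phosphorylate STAT proteins. The interferon-stimulated response element (ISRE) lies in the promoters of many antiviral genes, and the GAS element in those of other interferon-responsive genes. Besides the antiviral genes, whose mRNAs stay high for many hours, many stimuli switch on short-lived transcripts for a brief time. Such mRNAs often carry AU-rich elements in the 3′ UTR, which recruit proteins that shorten the poly(A) tail and hasten decay, and many encode transcription factors and inhibitors of signalling.

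Promoter and 3′ UTR sequences are given first because the rule did not use them. RefSeq promoters (GRCm38.p6), which run from 250 bases before to 50 bases after each annotated start, were matched by symbol for 89 of the 123 members. An ISRE core, searched on both strands as a pair of TTTC blocks with any 2 bases between them, lay in 5 of the 89 (5.62%). It lay in 3.54% of the 8480 genes with a promoter and the same minimum of footprints, and in 3.99% of all 27025 genes with a promoter. The 5 windows are shown in the direction of the gene with the match in capitals. The match was centred 12 bases after the start in Etv6, at the start in Ripk1, and 106, 198 and 214 bases before it in Sgk1, Syt6 and Tm4sf1.
Etv6 (chr6:134035697-134035726, + strand): cagttctgccTTTCAGTTTCtctcttccag
Ripk1 (chr13:34002859-34002888, + strand): aacgttcccgGAAATCGAAAagcgcggaac
Sgk1 (chr10:21882063-21882092, + strand): cctgccttgcTTTCTCTTTCcatttacctt
Syt6 (chr3:103575032-103575061, + strand): cctcgtttacGAAATGGAAAactgagtccc
Tm4sf1 (chr3:57302188-57302217, - strand): caaacaaatcTTTCTTTTTCattagtgttt

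The GAS pattern TTCNNNGAA lay in 12 of the 89 members (13.5%, against 8.07% and 9.55%). They were Emp1, Etv6, Hmga1b, Maff, Mcf2l, Mtfr2, Plscr1, Rasl11a, Ripk1, Sgk1, Sgms2 and Tgif1. In Ripk1 the second of its GAS matches overlapped the ISRE match shown above. The cAMP response element (CRE), TGACGTCA, which binds CREB, CREM and ATF factors, lay in 7 members (7.87%, against 3.82% and 2.03%). They were Dusp8, Ell2, Hs3st3a1, Jak1, Maff, Stk38l and Wsb1. Dusp8 held 2 matches, 103 and 59 bases before its start. An AP-1 site, TGANTCA, lay in 11 members (12.4%, against 5.6% and 8.97%), an NF-kappaB site in 10 (11.2%, against 12.4% and 9.55%) and a CArG box in 3 (3.37%, against 1.62% and 1.81%). Genes with several annotated starts were searched at each of them, and a gene was counted once when any start matched. The number of starts was not matched between members and other genes, and the shares were not tested. A match is a string of letters and not a shown binding site. The windows around CRE are given for Dusp8, a phosphatase of the stress-activated MAP kinases, for Maff, a small MAF factor, and for Jak1, the kinase of the interferon receptor itself.
Dusp8, first match (chr7:142095373-142095402, - strand): gcccgctccgcTGACGTCAcctgcccccga
Dusp8, second match (chr7:142095329-142095358, - strand): ttggctgcaggTGACGTCAggggctttttc
Maff (chr15:79347480-79347509, + strand): ggctggggcggTGACGTCActgcatgactg
Jak1 (chr4:101265306-101265335, - strand): ggagcagcttcTGACGTCAcgggggctggg

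The 3′ UTRs of the members had a higher median length than those of genes with the same minimum of footprints, and a larger share of them held an AU-rich nonamer. Over the transcript with the longest coding sequence in GENCODE M21, the median 3′ UTR had 1680 bases in the 118 members with one and 1055 in the 10540 other and member genes together. The nonamer TTATTTATT, a core of AU-rich elements, lay in 22 of the 118 (18.6%) and in 7.41% of the 10540. Among 3′ UTRs above 2000 and up to 4000 bases the share was 32.5% (13 of 40 members) against 12.4%, above 4000 bases 36.4% (4 of 11) against 24.0%, above 1000 and up to 2000 bases 10.5% (4 of 38) against 7.16%, above 500 and up to 1000 bases 6.67% (1 of 15) against 4.75%, and up to 500 bases 0 of 14 against 1.6%. The shorter ATTTA pentamer was in 83.9% and 68.6%, and from the shortest to the longest of these length bins in 35.7% against 31.7%, 66.7% against 63.0%, 89.5% against 84.7%, 97.5% against 95.3%, and 100% against 99.9%. These shares are descriptions without a test. The nonamer stood at least 2 times in Etv6, Maff, Ripk1 and Tm4sf1, and in Ripk1, Tm4sf1 and Etv6 the matches overlapped each other. Windows are shown for 5 members whose values are given further on, with the nonamer in capitals.
Etv6 (chr6:134267674-134267702, + strand): tttattttatTTATTTATTtatttttggg
Maff (chr15:79358778-79358806, + strand): ttccacactcTTATTTATTgcacgaatct
Hk2 (chr6:82725901-82725929, - strand): tttatacgagTTATTTATTccagactgtt
Tm4sf1 (chr3:57286472-57286500, - strand): ttacaccttgTTATTTATTtattttaatg
Noct (chr3:51250858-51250886, + strand): tcatttcaagTTATTTATTtgtgggattt

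**Figure D1:**
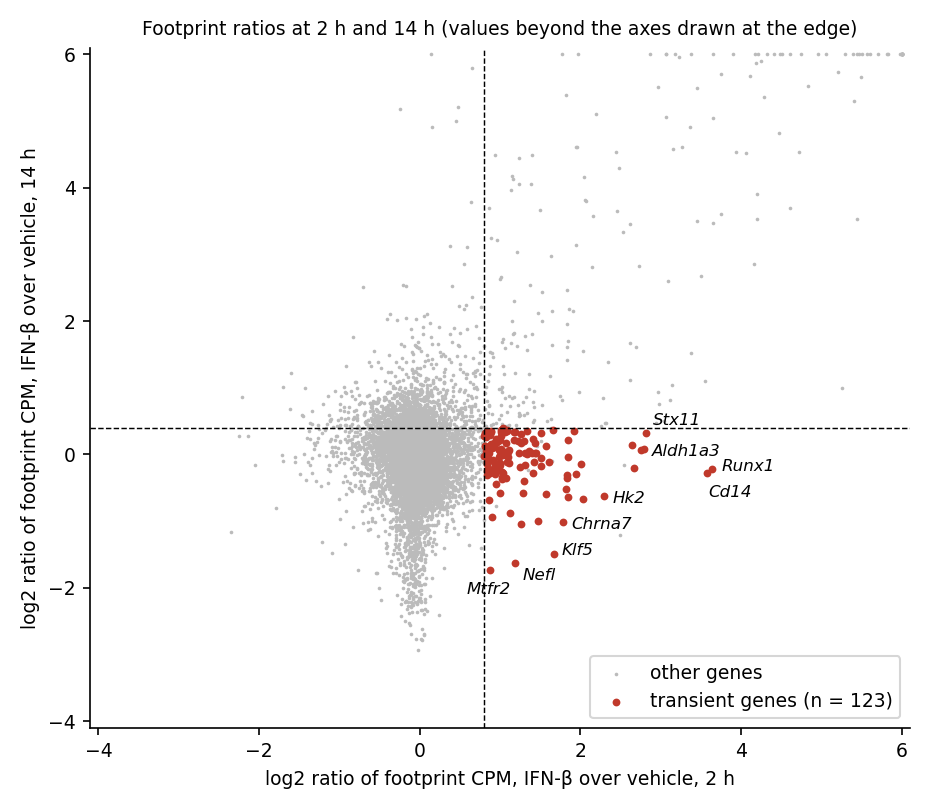
Each point is a gene with a mean of at least 30 footprint counts at 2 h. The x axis is the log2 ratio of footprint CPM in IFN-β over vehicle cultures at 2 h and the y axis the same ratio at 14 h; dashed lines mark 0.8 and 0.4, and the 123 transient genes (red) fill the corner that these lines set, from 0.80 to 3.64 at 2 h and from -1.74 to 0.40 at 14 h.

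By the rule, members had higher footprint levels at 2 h, and these values are a description. The log2 ratio at 2 h had a median of 1.08 over the members and of -0.05 over all genes with the minimum of counts. It reached 1 in 75 members, 1.5 in 27 and 2 in 10. All 4 IFN-β cultures lay above all 4 vehicle cultures in 102 of the 123 members, where 6.55% of all genes did so, and in the other 21 the groups overlapped. When each IFN-β culture was set beside the vehicle culture of the same number, it was the higher in 4 of 4 pairs for 122 members. The exception was Gm20594, higher in 2 pairs.

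Summed over the 123 members, the footprints made 4518 to 5232 CPM in the vehicle cultures at 2 h (4891 ± 315, SD, n = 4) and 10314 to 10896 CPM in the IFN-β cultures (10662 ± 247, SD, n = 4). At 14 h the sums were 4130 to 4348 CPM with vehicle (4242 ± 110, SD, n = 4) and 3918 to 4176 CPM with IFN-β (4039 ± 107, SD, n = 4). The treated cultures at 2 h stood apart from the other 12, and at 14 h the groups overlapped. The members were chosen by their ratios in these same libraries, so this follows largely from the rule and the sums are a description.

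**Figure D2:**
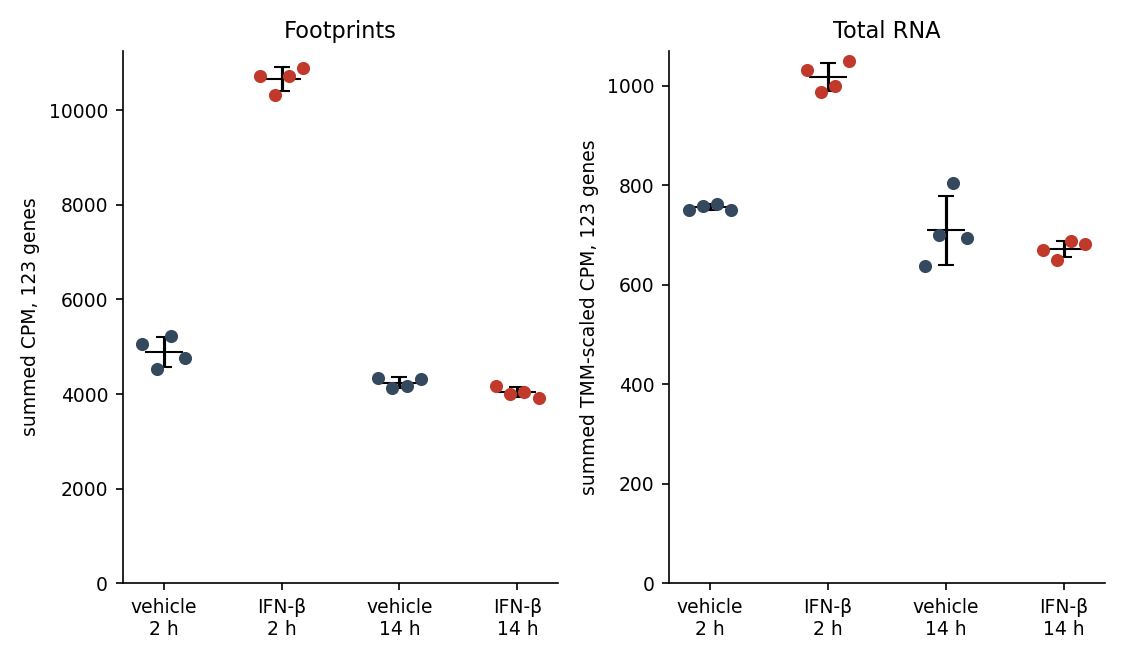
Summed level of the 123 transient genes in each library, in footprint CPM (left) and in total RNA CPM scaled by TMM (right), for vehicle (dark) and IFN-β (red) cultures at 2 h and 14 h; points are cultures, the bar is the mean and the whiskers the SD (n = 4). Only the IFN-β cultures at 2 h lie above the rest, at 10314 to 10896 in footprints, which follows largely from the rule, and 988 to 1050 in total RNA.

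At 14 h the ratios had a median of -0.01 over the members and -0.02 over all genes. They were below 0 in 62 members, at or below -0.4 in 18 and at or below -0.8 in 8, and 17.4% of all genes were at or below -0.4. The IFN-β cultures lay above all vehicle cultures in 16 members (21.6% of all genes) and below them in 23 (26.1% of all genes), and the groups overlapped in 84. edgeR's quasi-likelihood test, which the choice of members leaves without weight here, called 105 of the 123 higher at 2 h (5.25% of 12104 genes tested). With the culture number as a block it called 123 (15.9% of genes). At 14 h, without the block, it called 21 higher (26.2% of 12113 genes) and 24 lower (26.3%), left 70 without a call and did not test 8. For the change of the effect from 2 h to 14 h, 108 members were called lower (15.5% of 12508 genes), and 122 with the block (3445 of 12508 genes).

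Members close to the limits of the rule differed little from genes left outside it. Hivep3 (0.80), Mtmr11 (0.81) and Nrp1 (0.81) lay just above 0.8 at 2 h, and Frem2, Plekhg2 and Morc4 just below it (0.80 each when rounded). Dcp2 (0.40), Lonrf1 (0.37) and S1pr1 (0.37) lay just under the limit at 14 h, and Palmd (0.40), Ogfrl1 (0.43) and Diras2 (0.43) just over it. Fhdc1, with a mean of 30.1 counts, Adamts15 with 31.5 and ENSMUSG00000095265 with 31.6 just met the minimum of counts, which Gfod1 and Mafk with 28.4 each and ENSMUSG00000078582 with 29.0 missed.

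After the values had been seen, the ratio was also read in pairs of 2 h cultures that were left out of the rule in turn. The members themselves were chosen with all of these cultures. For this the rule was applied without both 2 h cultures of 1 number, and the values were taken from the pair left out. The 14 h cultures and the other 2 h cultures stayed in the rule. It chose 129, 121, 129 and 123 genes without the numbers 2, 3, 5 and 6, and the median log2 ratio of these genes in the pair left out was 1.06, 1.10, 0.99 and 1.18. In that pair 129 of 129, 120 of 121, 128 of 129 and 123 of 123 chosen genes were above 0, where 39.6% to 44.8% of all genes were. The ratio was at least 0.8 in 74.4%, 74.4%, 69.0% and 82.1% of the chosen genes and in 3.05% to 4.01% of all genes. Single members depended more on the cultures: 72 of the 123 stayed members whichever library was left out, and 107 stayed without both cultures numbered 3, when 121 genes met the rule.

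**Figure D3:**
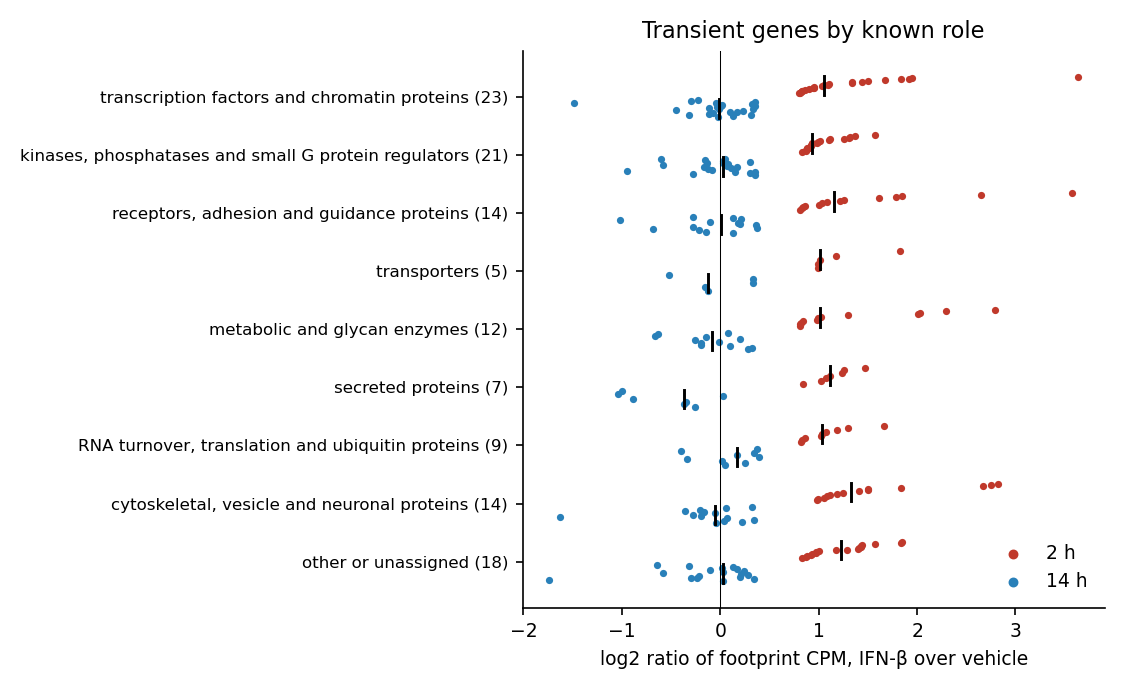
Log2 ratio of footprint CPM (IFN-β over vehicle) of each transient gene at 2 h (red) and 14 h (blue), by known role, with the number of members in parentheses and a black bar at the median. Medians at 2 h run from 0.93 (kinases, phosphatases and small G protein regulators) to 1.33 (cytoskeletal, vesicle and neuronal proteins), and at 14 h from -0.37 (secreted proteins) to 0.17 (RNA turnover, translation and ubiquitin proteins).

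Transcription factors and chromatin proteins were the largest role, with 23 members and log2 ratios of 0.80 to 3.64 at 2 h (median 1.06). Runx1, a RUNX factor of blood and neural development, had the highest ratio of all members. Its footprints were 0.321, 0.281, 0.133 and 0.413 CPM in the vehicle cultures 2, 3, 5 and 6 and 11.1, 6.66, 9.56 and 9.82 CPM in the IFN-β cultures (9.30 ± 1.89, SD, n = 4). At 14 h no culture was above 0.559 CPM, so that Runx1 was near its lower limit everywhere except after 2 h of IFN-β.

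Etv6, an ETS-family repressor, shows the pattern at a high level and with little spread. At 2 h it had 34.6, 34.6, 40.1 and 35.3 CPM with vehicle and 123, 143, 126 and 131 CPM with IFN-β, and at 14 h 33.9 to 36.5 CPM with vehicle and 30.1 to 35.8 CPM with IFN-β. Nfil3, a basic leucine zipper repressor and the member among the STAT-driven early genes, had 9.90 to 13.6 CPM with vehicle and 43.8 to 52.2 CPM with IFN-β at 2 h, and 7.42 to 9.50 and 4.89 to 7.97 CPM at 14 h. Both returned to the level of the vehicle cultures or slightly under it. Hivep2, a zinc finger protein that binds kappaB-like motifs, had 28.3 ± 1.93 and 109 ± 8.24 CPM at 2 h (SD, n = 4 each), and its relative Hivep3 14.3 and 25.3 CPM on average.

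The Krüppel-like factors Klf4, Klf5 and Klf6, known as early growth and stress response genes, were all members. Klf5 had 3.31, 2.39, 3.86 and 4.68 CPM with vehicle and 14.4, 7.87, 11.6 and 15.8 CPM with IFN-β at 2 h. At 14 h it had 3.35, 2.94, 4.00 and 3.62 CPM with vehicle and 0, 1.45, 1.48 and 0.745 CPM with IFN-β, a log2 ratio of -1.49. Thus Klf5 was above its control at 2 h and below it at 14 h without overlap either time. Klf4 had ratios of 1.51 and 0.32, and Klf6 of 0.86 and -0.07. In Klf6 the IFN-β culture number 3, with 114 CPM, overlapped the vehicle cultures (84.2 to 126 CPM).

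Other members of this role bind cAMP or growth factor responsive sites or modify SMAD signalling. Crem, a cAMP-responsive modulator, had 27.5 to 34.9 CPM with vehicle and 55.6 to 71.5 CPM with IFN-β at 2 h. Tgif1, a homeobox corepressor of SMAD proteins, had ratios of 1.34 and 0.00, and Smad1, which carries BMP signals, of 1.03 and -0.01. Maff had 3.38 to 11.2 CPM with vehicle and 7.26 to 22.5 CPM with IFN-β, where culture 3 was the lowest in both groups, so that the groups overlapped. Sox11, a factor of newborn neurons and the member of the neuroblast marker list, had 177 ± 19.4 and 343 ± 31.7 CPM at 2 h and 183 ± 8.13 and 134 ± 13.6 CPM at 14 h (SD, n = 4 each).

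The remaining transcription members had ratios of 0.81 to 1.44 at 2 h. They were Barhl2, Cebpa, the lysosomal gene regulator Tfeb, the elongation factor Ell2, the TFIID subunit Taf7, the zinc finger proteins Zbtb5 and Zbtb46, and the AT-hook chromatin proteins Hmga2, Hmga1 and Hmga1b. Hmga1 and Hmga1b are nearly identical in sequence, so that reads may have been split between them and their values are uncertain. In this role 20 of 23 members had IFN-β above vehicle in all cultures at 2 h, which follows largely from the rule (6.55% of all genes), and at 14 h 2 members had it above (21.6% of all genes) and 2 below (26.1%).

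Kinases, phosphatases and small G protein regulators numbered 21, with ratios of 0.83 to 1.57 (median 0.93) at 2 h. Jak1, the kinase bound to the interferon receptor, had 195, 216, 207 and 175 CPM with vehicle and 350, 409, 366 and 338 CPM with IFN-β at 2 h. At 14 h it had 150 to 154 CPM and 184 to 206 CPM, so that the groups were still apart but by a smaller ratio (0.88 at 2 h, 0.35 at 14 h). Ptpn1, a phosphatase that acts on JAK kinases, had ratios of 0.92 and -0.12.

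Inhibitors of receptor signalling in this role included Dusp8, Spred1, an inhibitor of the RAS to ERK route, and Rgs20 and Rgs17, which shorten the signal of G protein-coupled receptors. Their ratios at 2 h were 0.99, 0.88, 1.10 and 1.31, and at 14 h -0.58, 0.15, 0.03 and 0.03. The Ras-like Rasl11a had 0.90 and -0.95. Of the 34 feedback inhibitors on a list chosen with earlier results of these data known, 30 were tested in footprints at 2 h. There edgeR called 7 higher and 1 lower (adjusted p under the limit of 0.05, with 5.25% and 2.01% of all genes). With the culture number as a block it called 15 and 5 (15.9% and 13.4%). The 4 list members that are transient genes were Dusp8, Spred1, Rgs20 and Rasl11a. All 4 were among those called higher, in the contrast that the rule used, so the counts are a description.

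Ripk1, a kinase of TNF and cell death signalling, had 31.2 to 34.8 CPM with vehicle and 76.4 to 84.3 CPM with IFN-β at 2 h, and 34.7 to 36.8 and 41.9 to 45.8 CPM at 14 h. Sgk1, a serum- and glucocorticoid-induced kinase, had a ratio of 1.57 at 2 h and -0.60 at 14 h. The scaffold Akap12 had the most footprints of all members, counted without regard to length, with 736, 154, 623 and 663 CPM with vehicle and 1364, 320, 1028 and 1267 CPM with IFN-β at 2 h. Its culture 3 was lowest in both groups, and the groups overlapped although each IFN-β culture was above the vehicle culture of its number.

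The other members of this role were Syk, Map2k3, Itpkc, Bmp2k, Stk38l, Stk40, the Hippo adaptor Sav1, the mTORC2 partner Prr5l, the receptor tyrosine kinase scaffold Erbin, the small GTPase Rhoj and the exchange factor Mcf2l. Their ratios at 2 h lay between 0.83 and 1.36. At 14 h, 4 of the 21 lay below vehicle in all cultures (26.1% of all genes) and 2 above it (21.6%).

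Receptors, adhesion and guidance proteins numbered 14 (0.81 to 3.58 at 2 h, median 1.15). Cd14, a co-receptor for bacterial lipopolysaccharide, had 1.07, 2.25, 1.33 and 0.688 CPM with vehicle and 17.0, 38.9, 17.5 and 12.1 CPM with IFN-β at 2 h, and at most 0.559 CPM at 14 h. Cd14 is best known from myeloid cells. Of the 10 markers of microglia and macrophages, 7 had no footprint in the IFN-β cultures at 2 h and 8 none in the vehicle cultures, and the list summed to 15.5 to 37.4 and 12.0 to 34.7 CPM. Itgam had the most counts of that list at 2 h, a mean of 184.5 per library, with a log2 ratio of 0.17. The part of such cells in the Cd14 values was not tested. Tm4sf1, a tetraspanin-like membrane protein, had 28.1, 9.56, 15.3 and 8.66 CPM with vehicle and 146, 53.3, 113 and 85.0 CPM with IFN-β at 2 h, against 6.68 to 11.6 CPM over all 14 h cultures.

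Receptors with ligands of their own were also found. S1pr1, the receptor of sphingosine 1-phosphate, had 125, 207, 137 and 115 CPM with vehicle and 289, 308, 300 and 280 CPM with IFN-β at 2 h, where vehicle culture 3 was the highest of its group. At 14 h it had 39.5 to 58.7 CPM with vehicle and 55.5 to 71.8 CPM with IFN-β. Chrna7, a subunit of nicotinic acetylcholine receptors, had 5.77 to 7.74 CPM with vehicle and 21.8 to 27.8 CPM with IFN-β at 2 h, and 5.37 to 6.38 and 1.69 to 3.19 CPM at 14 h (log2 ratio -1.02). Like Klf5 it lay above the control at the early time and below it at the late time.

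Guidance molecules were represented by the semaphorins Sema7a (1.61) and Sema4d (1.04) and the receptors Plxna2 (1.08) and Nrp1 (0.81), log2 ratios at 2 h that at 14 h were -0.11, -0.28, 0.37 and 0.13. The heparan sulfate proteoglycan Sdc4 had 308 ± 35.9 and 560 ± 45.8 CPM at 2 h and 206 ± 16.9 and 128 ± 11.2 CPM at 14 h (SD, n = 4 each). The VEGF receptor Kdr, which is on the endothelial list, had 6.55 and 16.3 CPM at 2 h with overlap between the groups. The log2 ratios of the other 6 genes of that list ran from -0.53 (Tek) to 1.08 (Vwf) at 2 h, with Flt1, which had the most counts of them, at 0.28. Emp1, Tspan4, Itga1 and Nectin1 made up the rest, with ratios of 1.84, 1.22, 0.84 and 0.83.

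The 5 transporters carry inositol (Slc5a3), zinc (Slc30a4 and Slc39a14) and magnesium (Slc41a1 and Slc41a2). Slc5a3 had 176, 238, 183 and 143 CPM with vehicle and 550, 880, 680 and 513 CPM with IFN-β at 2 h, and at 14 h 90.9 to 108 CPM and 66.2 to 71.4 CPM. Again culture 3 was the highest in both 2 h groups. The other 4 had ratios of 0.99 to 1.17 at 2 h. Slc5a3 (chr16:92058322-92087473, mm10, + strand) lies within the annotated span of another member, Mrps6 (chr16:92058270-92112227, + strand), a mitochondrial ribosome protein with a ratio of 0.83. Reads from positions that both genes share cannot be told apart.

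Enzymes of metabolism and glycan synthesis numbered 12 (0.81 to 2.79 at 2 h, median 1.01). Aldh1a3, which makes retinoic acid, had 12.5, 4.92, 14.0 and 13.2 CPM with vehicle and 93.1, 37.7, 94.1 and 95.2 CPM with IFN-β at 2 h, and 2.33 to 4.00 CPM over all 14 h cultures. Hk2, the inducible hexokinase at the entry of glycolysis, had 12.1, 4.64, 12.4 and 12.5 CPM with vehicle and 55.6, 31.9, 56.8 and 68.3 CPM with IFN-β. In both genes culture 3 was the lowest of its group, and the ratio within that culture was of the same order. At 14 h Hk2 lay lower with IFN-β (9.25 to 15.2 CPM) than with vehicle (15.7 to 20.9 CPM). The phosphofructokinase Pfkp, another glycolytic enzyme, had a ratio of 0.82.

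Of the heparan sulfate sulfotransferases, Hs3st3b1 had 3.74, 7.59, 4.26 and 6.05 CPM with vehicle and 18.2, 34.5, 18.2 and 22.2 CPM with IFN-β at 2 h. Its homologue Hs3st3a1 had 3.16 to 6.75 CPM and 15.9 to 29.3 CPM. Their log2 ratios were 2.01 and 2.03. Both act on the chains that proteoglycans such as Sdc4 carry. Enzymes of glycosphingolipid and sphingomyelin synthesis formed a further set, with B3gnt5 at 1.03, B4galt6 at 0.99, Sgms2 at 0.98 and Ugcg, the glucosylceramide synthase, at 0.85. Npl, Mtmr11 and Pnp2 had 1.30, 0.81 and 0.81. Pnp2 overlaps Gm49342, a member of no known role, on chromosome 14.

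Secreted proteins (7 members, 0.84 to 1.47 at 2 h, median 1.12) had the lowest median of any role at 14 h, -0.37, and 4 of the 7 lay below vehicle in all cultures (26.1% of all genes) and none above (21.6%). Nptx2, a neuronal pentraxin, had 79.5, 37.6, 102 and 94.1 CPM with vehicle and 195, 113, 199 and 247 CPM with IFN-β at 2 h. At 14 h it had 76.0, 80.0, 71.6 and 78.8 CPM with vehicle and 37.5, 38.3, 35.8 and 36.2 CPM with IFN-β, a log2 ratio of -1.04. The protease Adamts1 had 106 ± 7.08 and 293 ± 25.9 CPM at 2 h (SD, n = 4 each), and 56.8 to 65.8 and 27.5 to 35.2 CPM at 14 h. Adamts15, the hyaluronan-degrading Cemip, stanniocalcin Stc1, Mamdc2 and Lalba had ratios of 1.12, 1.03, 1.07, 0.84 and 1.24 at 2 h and -0.88, -0.37, -0.35, -0.25 and 0.03 at 14 h.

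Proteins of RNA turnover, translation and protein degradation (9 members, 0.83 to 1.66, median 1.03) had the highest median at 14 h, 0.17. Btg1, which binds the deadenylases, had 46.5 to 70.3 CPM with vehicle and 96.9 to 137 CPM with IFN-β at 2 h. Noct, a rhythmic protein of the deadenylase family, had 23.8 to 27.4 and 49.6 to 77.0 CPM, and Dcp2, the decapping enzyme, 22.4 to 35.2 and 55.7 to 69.9 CPM. At 14 h, 5 of the 9 lay above vehicle in all cultures (21.6% of all genes), Btg1 and Dcp2 slightly so, and 1, Noct, below it (26.1%). The ubiquitin proteases Usp12 and Usp42, the ligases Lonrf1 and Wsb1 and the initiation factor Eif1a had ratios of 1.08, 0.83, 1.66, 0.86 and 1.02.

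**Figure D4:**
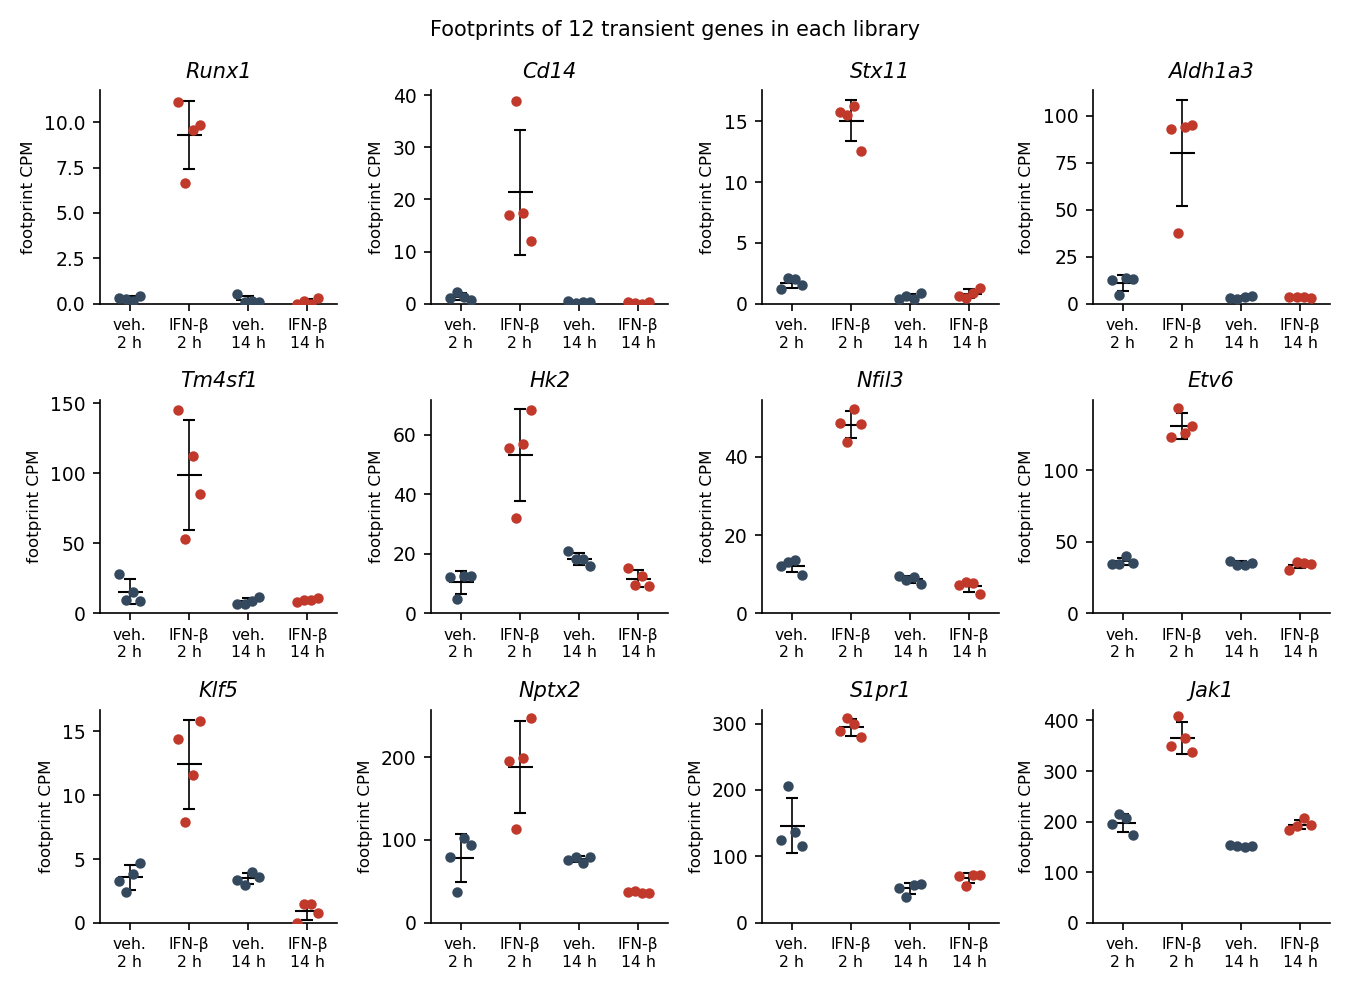
Footprint CPM of 12 transient genes in each library, for vehicle (dark) and IFN-β (red) cultures at 2 h and 14 h; points are cultures, the bar is the mean and the whiskers the SD (n = 4), and each panel has its own scale from 0. In every panel the IFN-β cultures at 2 h lie above the vehicle cultures of that time, and at 14 h Klf5 and Nptx2 lie below vehicle and Jak1 above it.

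Cytoskeletal, vesicle and neuronal proteins (14 members, 0.98 to 2.82, median 1.33) held several genes of low level. Stx11, a syntaxin of secretory granules, had 1.18, 2.11, 2.00 and 1.51 CPM with vehicle and 15.8, 15.5, 16.3 and 12.6 CPM with IFN-β at 2 h, and at most 1.28 CPM at 14 h. The synaptotagmin Syt4 had 0.825 to 2.25 CPM and 6.44 to 15.1 CPM. The giant scaffold Ahnak had a ratio of 2.75, and its level was highest in culture 3, which had 4.64 CPM with vehicle and 38.3 CPM with IFN-β, while the other cultures had 0.138 to 0.666 and 2.33 to 5.64 CPM. Likewise at its highest level in culture 3, the synaptic adhesion protein Lrrtm2 had 43.0 and 125 CPM in culture 3, against 7.70 to 10.4 and 40.9 to 45.4 CPM in the others.

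The neurofilament genes Nefm and Nefl, which overlap on opposite strands of chromosome 14 in the annotation, had ratios of 1.41 and 1.18 at 2 h and -0.27 and -1.63 at 14 h. Since the strand setting of the counting is not given in the sources used here, reads from one could be counted in the other. Nefl had 1.41 to 4.26 CPM and 3.43 to 9.30 CPM at 2 h, with overlap, and 3.87 to 5.43 and 0.435 to 1.49 CPM at 14 h. The actin- and microtubule-linked members Synpo, Map6, Fblim1, Fhdc1, Nhs, Jcad and Tanc1 had 1.5, 0.99, 0.98, 1.09, 1.25, 1.11 and 1.06 at 2 h, and Syt6 had 1.51. In this role 8 of 14 members were without overlap at 2 h, which follows largely from the rule (6.55% of all genes).

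Another 18 members had other roles or none that could be assigned. Among them Litaf, an endosomal protein, had 27.0 to 41.1 CPM with vehicle and 114 to 146 CPM with IFN-β at 2 h, and Plscr1, a phospholipid scramblase known as an interferon-induced gene, 7.70 to 10.7 and 24.6 to 32.7 CPM. Phlda1, a pleckstrin-homology protein linked to cell death, had 72.4, 64.7, 88.0 and 74.4 CPM and 189, 102, 180 and 208 CPM at 2 h. Mtfr2, a mitochondrial protein, had the lowest ratio of all members at 14 h, -1.74, with 8.81 to 11.0 CPM with vehicle and 2.03 to 3.62 CPM with IFN-β. Gm20594 owed its place to a single library: IFN-β culture 6 had 133 CPM and the other 3 had 9.15 to 16.8 CPM, within or near the 9.59 to 17.3 CPM of vehicle, and without that library its ratio no longer met the rule. The others were Ifitm10, Efr3b, Pxdc1, Fam129b, Klhl29, Fam107b, Parp8, Ndrg1, Lancl3, Gm49342, Gm6625 and the 2 genes without a symbol, with ratios of 0.84 to 1.44.

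Gene lists, chosen with earlier results of these data known, put the members beside their pathways. The calls at 2 h use the contrast that the rule used, and some of the called genes are members, so these counts are a description. In footprints at 2 h edgeR called 20 of 29 tested STAT-driven early genes higher and none lower, 9 higher and 2 lower of 38 growth factor and stress inducible transcription factors, 5 and 1 of 20 RNA decay factors, 9 and 1 of 29 cell death genes, 5 and 1 of 24 cytoskeleton and adhesion genes, 11 and 2 of 27 ubiquitin genes, and 4 and 0 of 17 NF-kappaB linked genes, where 5.25% and 2.01% of all genes were called higher and lower. With the culture number as a block, which the pairing of the footprint cultures allows, the counts were 24 and 3, 15 and 13, 10 and 3, 15 and 6, 10 and 4, 13 and 3, and 9 and 1, where 15.9% and 13.4% of all genes were called. Of the sustained type I interferon response genes, 36 of 36 tested were higher at 2 h and 40 of 40 at 14 h. None of these was a member, since all 40 were above the limit of 0.4 at 14 h. No member was on the NF-kappaB linked list, of which Tnip2 met both ratios and was left out by its symbol, as was Socs3 of the STAT-driven list. Members on the lists were Nfil3 (STAT-driven), Klf4, Klf5, Klf6, Maff, Crem, Tgif1 and Etv6 (growth factor and stress), Btg1, Dcp2 and Noct (RNA decay), Phlda1 and Ripk1 (cell death), Rhoj and Adamts1 (cytoskeleton and adhesion), and Usp12 and Usp42 (ubiquitin), beside the 4 feedback inhibitors.

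Total RNA came from the same lysates as the footprints and was not used by the rule. It is a second assay on the cultures that chose the members and not an independent set of cultures. Summed over the 123 members and scaled by TMM, it made 750 to 762 CPM with vehicle (756 ± 6.01, SD, n = 4) and 988 to 1050 CPM with IFN-β (1017 ± 28.3, SD, n = 4) at 2 h, without overlap. At 14 h it made 638 to 805 CPM with vehicle and 650 to 687 CPM with IFN-β, and the groups overlapped. The members had few total RNA counts, with a median of 16.5 per library at 2 h and 5.62 at 14 h, against 223 and 123 in footprints, and 40 members had a mean under 10 at 2 h.

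Without a filter on low counts, 121 members had a log2 fold change in total RNA at 2 h. Slc5a3 and Pnp2, both of which overlap another annotated gene, had no count. The fold change was above 0 in 100 of the 121, where 58.4% of genes with the same minimum of footprints and 51.0% of all genes were above 0. The median was 0.56 over the members, 0.08 over genes with the footprint minimum and 0.01 over all genes. At an unadjusted p under 0.05, 31 members were higher and 2 lower, where 3.2% and 3.05% of all genes were. All IFN-β cultures lay above all vehicle cultures in 19 of the 123 members and below them in none, where 2.82% and 1.28% of genes with the footprint minimum did so.

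**Figure D5:**
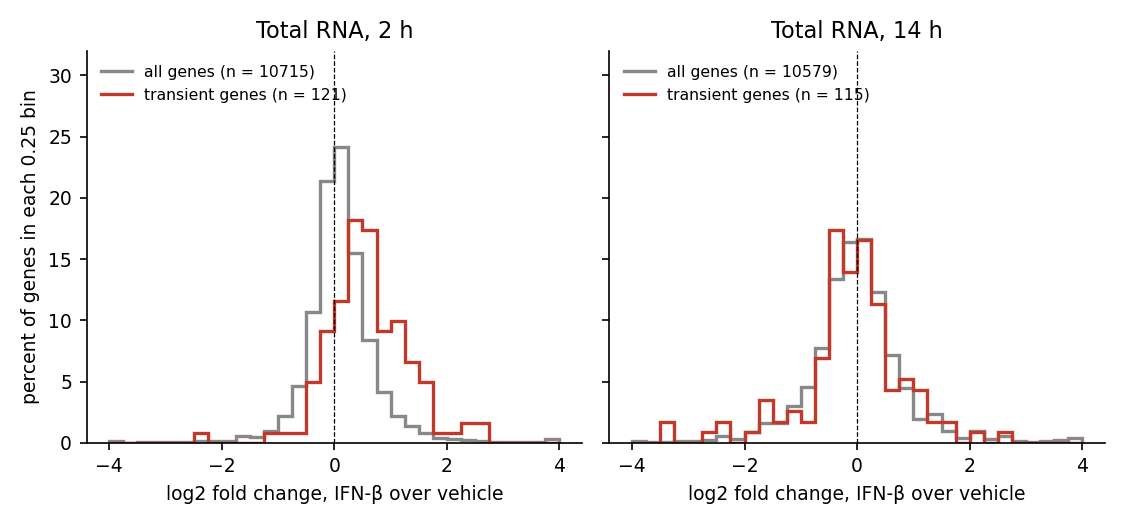
Percent of genes in bins of 0.25 of the log2 fold change in total RNA (IFN-β over vehicle, edgeR without a filter on low counts) at 2 h (left) and 14 h (right), for transient genes (red) and all genes with a mean of at least 30 footprint counts at 2 h (grey); values beyond 4 are in the outer bins. At 2 h the transient genes are shifted to the right (median 0.56 against 0.08) and at 14 h both groups are centred near 0 (medians -0.06 and -0.01).

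After the filter of at least 10 counts in at least 4 libraries, 86 members were tested at 2 h and 1 was called, where 84 of 11639 genes (0.722%) were called higher and 0.0773% lower. The filter can favour members that are high with IFN-β, since 13 of the 86 reached 10 counts in fewer than 2 vehicle libraries and 4 of these in all IFN-β and no vehicle library. The called member was Hs3st3b1, with 3.11, 3.71, 3.09 and 2.06 CPM with vehicle and 7.25, 7.89, 7.67 and 6.68 CPM with IFN-β (log2 fold change 1.30 ± 0.27 SE, edgeR adjusted p = 0.0453). The call did not hold when any of the 8 libraries was left out (adjusted p from 0.0567 without vehicle culture 3 to 0.222 without IFN-β culture 5; 0.166, 0.11 and 0.0989 without IFN-β cultures 2, 3 and 6 and 0.118, 0.163 and 0.16 without vehicle cultures 2, 5 and 6), while the fold change stayed between 1.15 and 1.44. DESeq2 called Hs3st3b1, Phlda1 and S1pr1, and without vehicle culture 3 edgeR called Tgif1. At an unadjusted p under 0.05, 25 of the 86 were higher (3.77% of all genes) and 1, Nectin1, lower (3.48%).

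The members with the smallest p after Hs3st3b1 were Phlda1 (1.18 ± 0.26, adjusted p = 0.0707), Usp12 (1.29 ± 0.30, 0.0965) and Crem (1.14 ± 0.27, 0.109), log2 fold changes with SE and edgeR's adjusted p, and none of these passed. Phlda1 had 20.4, 18.4, 14.2 and 15.5 CPM with vehicle and 31.0, 31.6, 42.5 and 51.2 CPM with IFN-β, without overlap. S1pr1 had 0.444, 2.70, 2.16 and 1.90 CPM and 6.01, 5.75, 4.46 and 4.70 CPM, and Runx1 0.792 to 1.35 CPM and 1.78 to 4.93 CPM, in both cases without overlap. Other members with high footprint ratios had total RNA fold changes near 0, among them Ahnak (-0.08 ± 0.32), Hs3st3a1 (-0.15 ± 0.41), Chrna7 (0.12 ± 0.41) and Ripk1 (-0.06), none of which passed. Jak1 had 3.55, 7.60, 5.56 and 10.9 CPM with vehicle and 7.40, 8.38, 2.50 and 2.97 CPM with IFN-β, and the groups overlapped, with 2 of the IFN-β cultures below all vehicle cultures.

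By role, total RNA fold changes at 2 h were above 0 in 16 of 18 tested transcription members (median 0.56), 17 of 19 kinases, phosphatases and G protein regulators (0.50), 7 of 9 receptors (0.30), 3 of 3 transporters (0.61), 5 of 7 enzymes (0.34), 3 of 3 secreted proteins (0.48), 6 of 7 RNA turnover and ubiquitin proteins (0.84), 8 of 11 cytoskeletal and neuronal proteins (0.44) and 8 of 9 others (0.35), where 55.1% of all genes tested were. These counts hold the 13 members that passed the filter with fewer than 2 vehicle libraries. Without the filter the counts in the same order were 20 of 23 (median 0.53), 19 of 21 (0.56), 10 of 14 (0.38), 4 of 4 (0.81), 8 of 11 (0.51), 6 of 7 (1.24), 8 of 9 (0.82), 10 of 14 (0.43) and 15 of 18 (0.75). Of genes with the footprint minimum 58.4% were above 0, and of all genes 51.0%. Differences between the roles were not tested. Where annotation places nothing on the opposite strand (51 of the 86), 45 members were above 0 in the fit of all genes (median 0.60). The share of 55.1% is over all genes tested, with or without a gene on the opposite strand. A fit of only genes with nothing there gave a median of 0.49 over the 51 members and 0.004 over all 4567 genes in it.

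At 14 h, 43 members were tested in total RNA and 1 was called. Ugcg fell to a log2 fold change of -1.15 ± 0.29 (SE, edgeR adjusted p = 0.0237; 2.83% of 7520 genes were called lower and 3.47% higher), with 9.58, 7.45, 10.6 and 10.8 CPM with vehicle and 4.44, 4.66, 4.74 and 2.95 CPM with IFN-β. The adjusted p was 0.0784, 0.0598 and 0.0725 without IFN-β cultures 1, 2 and 4 and 0.0732 without vehicle culture 4, and lay between 0.0213 and 0.0498 without each of the other libraries. The call was also lost with total-count scaling (0.305) and without the filter (0.0526), where Fam107b, Ifitm10 and Syt6 were called instead. Without the filter 54 of 115 members were above 0 and 61 below (49.6% of all genes above), and the medians were -0.06 and -0.01.

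The change of the total RNA effect from 2 h to 14 h was added after the data were seen. Without the filter it was below 0 in 92 of 121 members (51.4% of all genes), with a median of -0.59 over the members and -0.03 over all genes, and at an unadjusted p under 0.05 it was lower in 21 (3.6%) and higher in 1 (3.11%). With the filter 87 members were tested and Phlda1 alone was called (-1.66 ± 0.37 SE, edgeR adjusted p = 0.0372; 0.109% of 11885 genes were called lower). In Phlda1 the total RNA at 14 h was 14.4, 14.4, 15.2 and 11.6 CPM with vehicle and 8.51, 14.0, 6.43 and 8.37 CPM with IFN-β. That call was lost in 12 of the 16 fits that left out 1 library, with adjusted p up to 0.0947, and held without IFN-β cultures 2 and 3 and vehicle culture 2 at 2 h and IFN-β culture 2 at 14 h.

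The vehicle cultures themselves differed between the times. The members' mean footprint level in vehicle was higher at 2 h than at 14 h in 87 of 123 (45.4% of all genes), with a median log2 ratio of 0.22 against -0.04 over all genes. In 42 members all 2 h vehicle cultures were above all 14 h vehicle cultures (17.1% of all genes) and in 13 all were below (20.0%). Lrrtm2 (17.4 and 1.67 CPM), Synpo (21.4 and 4.74 CPM), Pfkp (32.4 and 9.11 CPM) and S1pr1 (146 and 51.9 CPM) were among those higher at 2 h, and Lalba (2.58 and 10.5 CPM), Litaf (35.7 and 67.2 CPM) and Hk2 (10.4 and 18.3 CPM) among those higher at 14 h. The 2 h vehicle entered the rule as the denominator, so these levels are a description, and the time in culture and the set of cultures cannot be told apart.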

How the data were processed

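Footprint and total RNA libraries of 16 cultures (32 libraries, 4 per group) were used. The authors trimmed reads with Trim Galore 0.4.4, mapped them with Bowtie 0.12.7 to the Ensembl transcriptome of mm10, removed duplicates and counted with SummarizeOverlaps, and they deposited raw counts per gene, over the coding sequence for footprints and the gene body for total RNA. The aim here was to describe 123 genes. The members, roles and gene lists were chosen with earlier results of these data known. Replicates of a group are, by the study's methods, cultures from different mice, so p-values measure the spread between cultures. CPM in footprints is the count per 1000000 of the library total, and in total RNA of the TMM-scaled size. Genes that reached 10 counts in 4 or more libraries were fitted with edgeR 4.0.16 in R 4.3.3 (quasi-likelihood test, TMM, two-sided, Benjamini-Hochberg over all genes tested, call at adjusted p under 0.05). DESeq2 1.42.0, total-count scaling, other filters, the culture number as a block, leaving out each library, and genes without an annotated gene on the other strand were alternatives. The steps were tested on simulated data.

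Same-numbered vehicle and IFN-β cultures deviated together in footprints (correlations of 0.627, 0.812, 0.328 and 0.532 at 2 h and 0.339, 0.224, 0.192 and 0.418 at 14 h), so there the number pairs the cultures. Genes named in full were the 15 highest at 2 h, the 5 lowest at 14 h, the 5 with the most footprints, list members, members called in total RNA and those next to a limit; all other members, named to complete the roles, were chosen after their values were seen, as were the change of the total RNA effect with time, the reading of cultures left out and the fits without both cultures numbered 3. Gene positions are from GENCODE M21. The depth of total RNA limits what could be detected in single members.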

Additional observations from a re-analysis of the deposited data

Results flagged for a closer look

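Dixon's test was applied to 104 groups of 4 libraries, from 24 members whose values were examined and from the summed level of the members. A library stood outside the others of its group in 13, all of single members, and chance gives about 1 in 20. At 2 h culture 3 was that library in 8 of them, for Aldh1a3 with IFN-β (37.7 CPM, the lowest) and vehicle (4.92, the lowest), Ahnak with IFN-β (38.3, the highest) and vehicle (4.64, the highest), Syt4 with vehicle (2.25, the highest), Hk2 with vehicle (4.64, the lowest), Hs3st3a1 with IFN-β (29.3, the highest) and Gm20594 with vehicle (17.3, the highest). Other cultures were Gm20594 with IFN-β (132.5 CPM in culture 6), Etv6 with vehicle (40.1 in culture 5), and at 14 h Runx1 with vehicle (0.559 in culture 1), Nefl with vehicle (5.43 in culture 4) and S1pr1 with IFN-β (55.5, the lowest, in culture 2). The effect of IFN-β on total RNA of Phlda1 differed between the times by edgeR's interaction term (log2 -1.66, adjusted p = 0.0372).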

How the results depend on the processing

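The rule found 84 to 173 genes under other pseudocounts, count minimums and scalings and 122 to 149 without single libraries. Genes called in footprints were 878 at 2 h, 3538 with the culture number as a block and 1671 without both cultures numbered 3 (517 to 953 without single libraries), and for the change with time 3867 and, with the block, 6944. In total RNA at 2 h 93 genes were called, 169 with DESeq2, 174 without a filter, 44 at a mean of at least 50 counts, 28 among genes with no gene on the other strand, 39 without both cultures numbered 3 and 30 to 74 without single libraries. The 1 member called became 3 with DESeq2 and 0 with total-count scaling, no filter, a mean of 50, the block, or no gene on the other strand (0 to 1 without single libraries). The median of members minus that of all genes was 0.44, and 0.55 without a filter and 0.34 at a mean of 50. Total-count scaling moved the median of all genes from 0.04 to 0.23 and that of members from 0.48 to 0.68. In total RNA at 14 h 474 genes were called, 269 with total-count scaling, 247 at a mean of 50, 95 with no gene on the other strand and 171 to 450 without single libraries. Members called were 1, and 0 with total-count scaling or a mean of 50, 2 with DESeq2, 3 without a filter (Ugcg not among them) or with the block, and 0 to 2 without single libraries. The median difference was -0.03, -0.25 at a mean of 50 (5 members), -0.089 with no gene on the other strand, and -0.067 to 0.062 without single libraries. For the change with time in total RNA 76 genes were called, 169 with DESeq2, 214 without a filter, 4 with no gene on the other strand and 37 to 111 without single libraries. Members called were 1, and 0 with total-count scaling, the block or no gene on the other strand, 2 without a filter, and 0 to 1 without single libraries. The median difference was -0.50, -0.22 at a mean of 50, and -0.57 to -0.38 without single libraries. The cause of these shifts was not tested. In total RNA, which came from the same lysates, same-numbered cultures did not steadily deviate together (correlations of -0.013, 0.39, 0.02 and -0.477 at 2 h and 0.258, 0.093, -0.012 and 0.048 at 14 h). The depth of total RNA was low, so these values cannot show that the cultures were unpaired.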
